A study of Mus musculus with 18 samples.

Results

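The mRNA levels of 35 genes of glucose breakdown and of the response to low oxygen were followed in 18 mouse tumors, as 15 glycolytic enzymes, 6 transporters and regulators of the pathway, 13 target genes of hypoxia-inducible factor (HIF) and the HIF subunit gene Hif1a. The genes were taken by name from the table of 50600 genes, all 35 were found, and all 35 were among the 16927 genes that passed the filter on low counts. Female C57BL/6 mice bought at 5 to 6 weeks of age carried subcutaneous B16F10 tumors, a transplanted mouse melanoma line, and whole tumors, 2 per group, were collected for RNA 24 h after the last intratumoral (IT) injection. The 5 groups given 1 injection received PBS, unloaded extracellular vesicles (EVs, called exosomes in the labels), exoCDN2 at 0.1 µg of CDN2, free CDN2 at 20 µg or free CDN2 at 100 µg. The 4 groups given 2 injections 3 days apart received PBS, exoCDN2 at 0.1 µg, CDN2 at 20 µg or CDN2 of an amount that the labels do not state. CDN2, named CL656 in the labels, is a synthetic cyclic dinucleotide that activates STING, and exoCDN2 is the same compound loaded into vesicles of a human HEK293-derived line that overexpresses PTGFRN on the vesicle surface. No group given 2 injections received unloaded EVs. The hosts kept their own stromal and immune cells, so each value below is a sum over melanoma cells and all other cells of the tumor, and in such samples fewer cells of a type and less RNA per cell cannot be told apart.

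Glycolysis splits glucose into pyruvate in the cytosol, and lactate dehydrogenase turns the pyruvate into lactate, which leaves the cell through monocarboxylate transporters. HIF is a pair of proteins, an alpha subunit such as that encoded by Hif1a and a constant partner. The pair binds DNA at core letters that can read ACGTG or GCGTG. With oxygen present, prolyl hydroxylases of the EGLN family mark the alpha subunit for destruction, so HIF is controlled mainly as a protein and the Hif1a mRNA is not a reading of its activity. HIF raises transcription of many glycolytic genes and of genes for blood vessel growth, pH control, mitochondrial turnover and collagen synthesis, and part of its targets, EGLN genes among them, act back on HIF. Most glycolytic enzymes are also made in large amounts by cells with oxygen, which is why the enzymes and the other HIF targets are set against each other here.

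The 250 bases before the annotated start of each gene were searched for ACGTG on either strand (RefSeq, GRCm38.p6), and 33 of the 35 genes had such a window. The form GCGTG was not searched for, so the shares below cover only part of the possible core sites. At least 1 window held the letters for 10 of 12 HIF targets (83.3%), 3 of 5 transporters and regulators (60%) and 7 of 15 enzymes (46.7%), against 18.5% of all 27025 genes. The windows of these genes were also richer in G and C (median 61%) than all windows (median 52.4%), and a match here is a run of letters, not a shown binding site. Windows are printed for the 5 HIF targets with a window whose levels differed most between the highest and the lowest tumor, for Slc2a1 as the main glucose importer and for Ldha as an enzyme whose window held the letters several times. They were picked with the expression values known. Each reads 5′ to 3′ toward the start of the gene, with ACGTG or its reverse complement CACGT in capitals.
Egln3 (ENSMUSG00000035105, chr12:54203875-54204124, minus strand): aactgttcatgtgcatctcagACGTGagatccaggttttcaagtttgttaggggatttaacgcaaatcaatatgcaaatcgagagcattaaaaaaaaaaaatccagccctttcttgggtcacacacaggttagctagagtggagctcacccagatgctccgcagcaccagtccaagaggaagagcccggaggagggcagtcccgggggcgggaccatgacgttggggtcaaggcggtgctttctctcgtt
Hilpda (ENSMUSG00000043421, chr6:29272376-29272625, plus strand): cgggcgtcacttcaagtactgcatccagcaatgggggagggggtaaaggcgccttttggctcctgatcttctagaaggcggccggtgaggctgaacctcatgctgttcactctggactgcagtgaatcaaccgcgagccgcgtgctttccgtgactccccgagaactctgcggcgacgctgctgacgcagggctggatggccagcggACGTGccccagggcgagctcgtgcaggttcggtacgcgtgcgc
P4ha2 (ENSMUSG00000018906, chr11:54100674-54100923, plus strand): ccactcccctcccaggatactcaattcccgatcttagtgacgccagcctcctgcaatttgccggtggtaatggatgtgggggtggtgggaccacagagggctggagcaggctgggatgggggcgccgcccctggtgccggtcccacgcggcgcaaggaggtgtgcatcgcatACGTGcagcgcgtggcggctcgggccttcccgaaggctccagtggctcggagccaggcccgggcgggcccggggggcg
Ankrd37 (ENSMUSG00000050914, chr8:45999851-46000100, minus strand): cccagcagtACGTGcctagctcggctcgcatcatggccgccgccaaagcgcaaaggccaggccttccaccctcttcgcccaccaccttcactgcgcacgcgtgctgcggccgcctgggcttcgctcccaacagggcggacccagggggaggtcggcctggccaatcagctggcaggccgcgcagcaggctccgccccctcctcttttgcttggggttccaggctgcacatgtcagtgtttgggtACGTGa
Adm (ENSMUSG00000030790, chr7:110627407-110627656, plus strand): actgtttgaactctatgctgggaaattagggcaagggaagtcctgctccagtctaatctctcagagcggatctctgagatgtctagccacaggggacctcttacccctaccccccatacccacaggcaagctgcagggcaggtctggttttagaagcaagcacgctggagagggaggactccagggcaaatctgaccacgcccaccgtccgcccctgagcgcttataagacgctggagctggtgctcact
Slc2a1 (ENSMUSG00000028645, chr4:119108495-119108744, plus strand): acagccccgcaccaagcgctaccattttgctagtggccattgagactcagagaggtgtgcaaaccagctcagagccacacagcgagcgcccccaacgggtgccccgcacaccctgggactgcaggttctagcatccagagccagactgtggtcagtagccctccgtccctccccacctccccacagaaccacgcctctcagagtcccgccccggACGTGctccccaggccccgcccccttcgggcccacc
Ldha (ENSMUSG00000063229, chr7:46845554-46845803, plus strand): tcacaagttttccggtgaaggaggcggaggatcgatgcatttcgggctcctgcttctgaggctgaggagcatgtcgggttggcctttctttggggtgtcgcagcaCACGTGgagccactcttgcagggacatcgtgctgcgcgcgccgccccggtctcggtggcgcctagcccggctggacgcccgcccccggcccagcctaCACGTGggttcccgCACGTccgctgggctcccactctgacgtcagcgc
The Ldha window held 5 matches, 4 of them as 2 copies of CACGTG, which reads the same on both strands and counts on each. Egln3, Hilpda, P4ha2 and Slc2a1 had 1 match each and Ankrd37 had 2. The Adm window had none, which says only that ACGTG is not in these 250 bases, since GCGTG was not searched for.

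Total counts ranged from 21608895 to 65983630 per tumor, and the shallowest was tumor 1 of the 2 doses of 20 µg CDN2. The 2 tumors of that group were the least alike of any pair, with a correlation of 0.961 across genes against 0.986 to 0.998 in the other groups and 17.3% of tested genes more than 2-fold apart. Tumor 1 of the group held the highest level of the 18 tumors for 24 of the 35 genes. The share of all genes with their highest level in that tumor was not counted. Marker genes of cell types also set this group apart. Summed over 10 skeletal muscle markers the level was 221 and 413 CPM in the 2-dose PBS tumors, 242 and 246 with exoCDN2 and 5740 and 2880 with CDN2 at 20 µg. CPM are read counts scaled by the total of the tumor and its TMM (trimmed mean of M values) factor. Of the 10 markers 7 rose with CDN2 against PBS, and Pvalb was at 0 only in tumor 2 of the unloaded EV group. The 8 melanocyte markers, which mark the tumor cells, summed to 25000 and 25600 CPM with PBS, 16000 and 17300 with exoCDN2 and 7710 and 13700 with CDN2, 5 of the 8 fell with CDN2, and none was at 0 in any tumor. The 8 neutrophil markers summed to 1 and 0.306 CPM with PBS, 54.8 and 14.2 with exoCDN2 and 916 and 204 with CDN2, and all 8 rose with CDN2, with Ly6g, Camp and Ngp at 0 in some tumors. Summed fibroblast, macrophage, erythroid and T and NK cell markers were also higher in both CDN2 tumors than in both PBS tumors. Of these genes 4 of 7, 5 of 8, 5 of 5 and 5 of 8 rose in that order, and 1 macrophage gene fell. Gzmb made up 30.3 and 72.6 CPM of the T and NK sums of 36.3 and 82.3 CPM. Among macrophage genes, Cd14 was at 249 and 57.4 CPM against 4.06 and 2.61 CPM with PBS, and Mrc1 at 5.72 and 6.77 CPM against 25.6 and 11.2 CPM. Endothelial markers were 116 and 111 CPM with PBS and 67.4 and 107 CPM with CDN2, and keratinocyte markers were 0.816 and 0.416 CPM with PBS and 22.5 and 2.18 CPM with CDN2. These values stand beside every result on that group, and their part in them was not tested.

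Levels below, like the marker sums above, are CPM scaled by TMM factors, for tumor 1 and then tumor 2 of each group. Log2 fold changes, their standard errors (SE) and p-values come from the quasi-likelihood test in edgeR, with Benjamini-Hochberg adjustment of each p over the full set of tested genes. A gene is called changed, and is said to have risen or fallen, where the adjusted p was under 0.05 and the ratio over 2. For any gene taken alone, the smallest p that an exact permutation of 2 tumors against 2 allows is 0.333.

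Per kilobase of exon, 8 of the 15 enzymes were the most abundant of the 35 transcripts. In the 4 PBS tumors Pgk1 averaged 1270 CPM per kb, Eno1 1140, Aldoa 1130, Tpi1 976, Pkm 976, Ldha 779, Pgam1 586 and Gpi1 214, and these were the 8 highest of the list on that scale. Bnip3 came next with 114 CPM per kb. The other 7 enzymes averaged from 85.2 (Pfkl) down to 2.94 (Eno2) CPM per kb, in the range of the HIF targets, of which Egln3, the lowest, averaged 1.64. Pfkfb4, among the transporters and regulators, was the lowest of all 35 at 0.962. Over the 18 tumors, the ratio of the highest to the lowest level ran from 1.78 for Pgam1 to 4.16 for Hk2 among the enzymes, and from 3.21 for P4ha1 to 51.6 for Egln3 among the HIF targets.

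**Figure D1:**
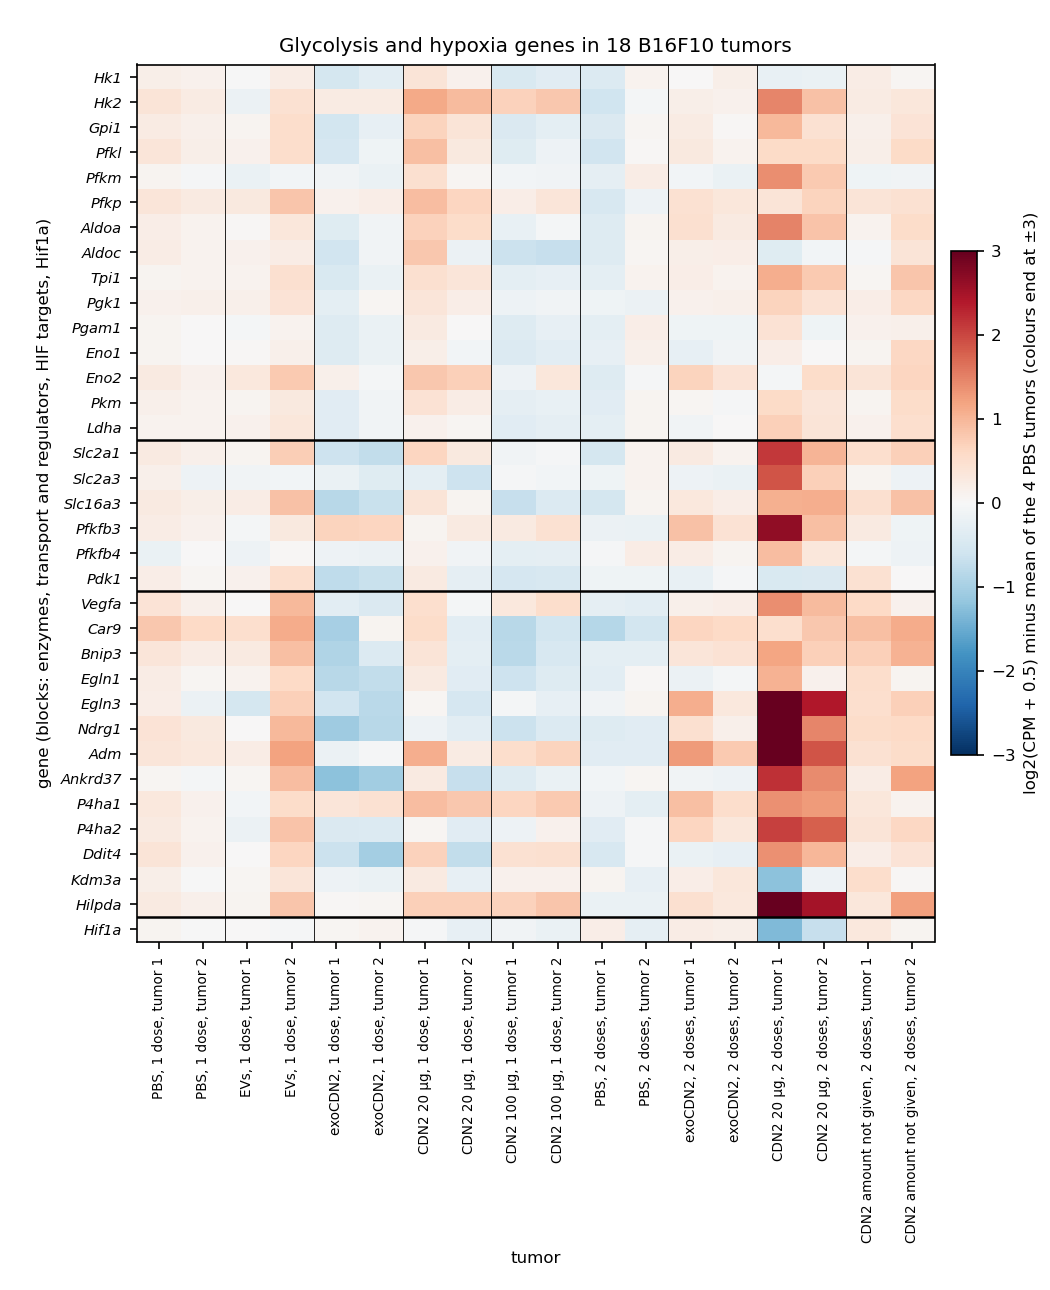
Level of each of the 35 genes (vertical axis, in blocks for enzymes, transporters and regulators, HIF targets and Hif1a) in each of the 18 tumors (horizontal axis), as log2(CPM + 0.5) minus the mean of the 4 PBS tumors, red for higher and blue for lower. Both tumors given 2 doses of 20 µg CDN2 are red for 12 of the 13 HIF targets, all but Kdm3a, and blue for Hif1a.

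Averaged over each list in each tumor, as log2(CPM + 0.5) relative to the 4 PBS tumors, the 2-dose 20 µg CDN2 tumors stood at 0.62 and 0.42 for the enzymes and at 1.94 and 1.25 for the HIF targets. The difference between both averages was 1.32 and 0.83, the highest values among the 18 tumors. The next highest was 0.45, in tumor 2 of the unloaded EV group, where the enzymes averaged 0.37 and the HIF targets 0.82. The 2-dose exoCDN2 tumors averaged 0.16 and 0.10 for the enzymes and 0.44 and 0.28 for the HIF targets. In tumors given 1 dose of 20 µg CDN2 the order was the opposite, with 0.58 and 0.29 for the enzymes and 0.43 and -0.16 for the HIF targets. The tumors given 1 dose of exoCDN2 were below the mean of the 4 PBS tumors on both, at -0.29 and -0.09 for the enzymes and at -0.53 and -0.41 for the HIF targets. Tumor 1 of the 2-dose PBS group was lower still for the enzymes, at -0.37. These averages are a description and carry no test.

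**Figure D2:**
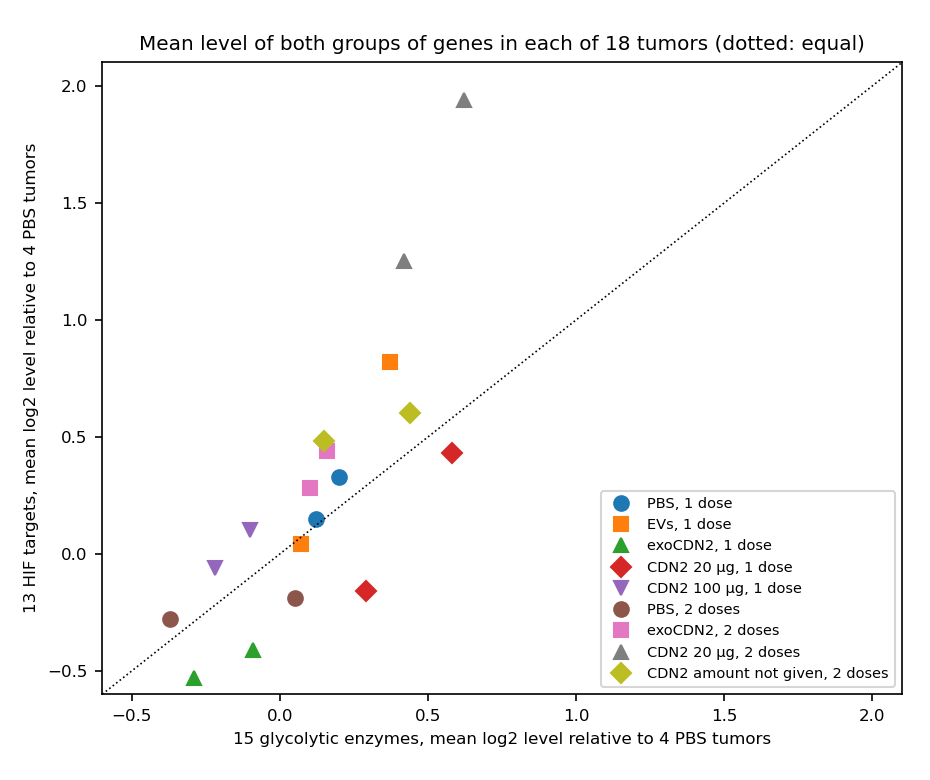
Average level of the 13 HIF targets (vertical axis) against that of the 15 glycolytic enzymes (horizontal axis) in each tumor, both as log2(CPM + 0.5) relative to the 4 PBS tumors, with a symbol and colour per group and 2 tumors per group. The dotted line marks equal averages, and the 2 tumors given 2 doses of 20 µg CDN2 lie farthest above it, at 1.94 and 1.25 for the HIF targets.

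After 2 doses of 20 µg CDN2, 19 of the 35 genes rose against 2 doses of PBS and none fell, while 30.6% of all genes changed (20% rose and 10.6% fell). The HIF targets moved most, with 11 of 13 risen and a median log2 fold change of 1.56. Of the enzymes 4 of 15 rose, with a median of 0.71, and of the transporters and regulators 4 of 6 rose, with a median of 1.36. The median over all genes was 0.00. By the adjusted p alone 27 genes were higher and 1, Hif1a, was lower, against 27.1% and 23.2% of all genes. In 27 of the 35 genes both CDN2 tumors lay above both PBS tumors, which held for 34.2% of all genes. Without tumor 1 of the CDN2 group, 14 of the 19 genes stayed changed: 10 of the 11 HIF targets, 3 of the 4 transporters and regulators and 1 of the 4 enzymes. Those lost were Pfkm, Aldoa, Tpi1, Slc2a3 and Bnip3, whose log2 fold changes without it were between 0.70 and 1.00 and still had an adjusted p under 0.05. Without tumor 2 all 19 stayed changed.

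**Figure D3:**
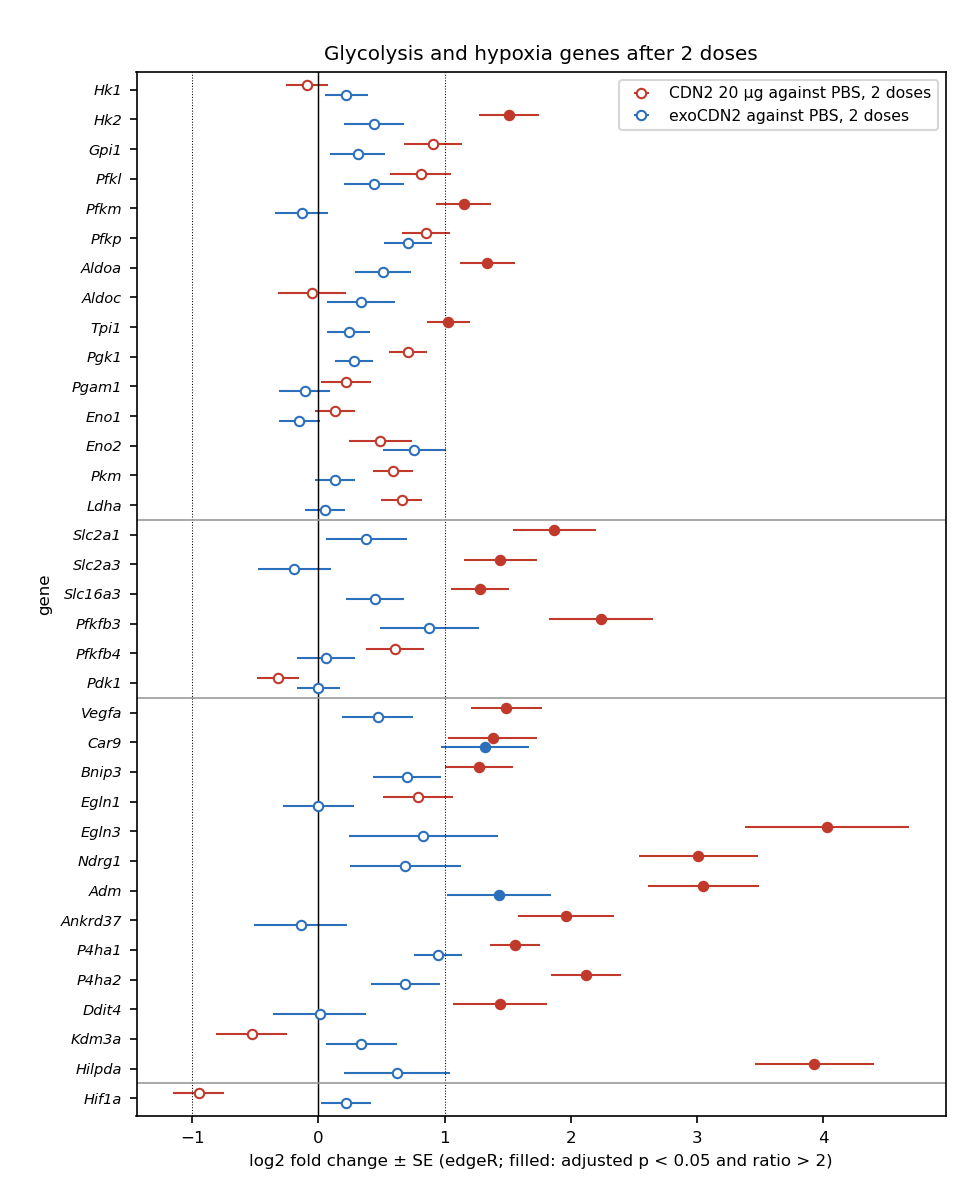
Log2 fold change ± SE (horizontal axis) of the 35 genes (vertical axis) after 2 doses against PBS, in red for CDN2 at 20 µg and in blue for exoCDN2, 2 tumors per group. Filled points mark genes called changed, 19 for CDN2 and 2 (Car9 and Adm) for exoCDN2, and both comparisons share the PBS tumors.

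Glucose enters tumor cells mainly through GLUT1, encoded by Slc2a1, and GLUT3, encoded by Slc2a3. After 1 dose Slc2a1 stood at 164 and 151 CPM with PBS, 143 and 227 with unloaded EVs, 88 and 80.3 with exoCDN2, 212 and 167 with CDN2 at 20 µg and 126 and 132 with CDN2 at 100 µg. After 2 doses it stood at 93.2 and 145 CPM with PBS, 163 and 146 with exoCDN2, 593 and 275 with CDN2 at 20 µg and 191 and 223 with CDN2 of unstated amount. Both tumors given 2 doses of 20 µg CDN2 were above every other tumor, and both given 1 dose of exoCDN2 were the lowest. Slc2a1 rose against 2 doses of PBS (3.66-fold, log2 fold change 1.87 ± 0.33 SE, adjusted p = 0.00086), with a log2 fold change of 1.2 without tumor 1 of the CDN2 group. Slc2a3 after 1 dose was at 27 and 22 CPM with PBS, 22.5 and 23 with unloaded EVs, 21 and 18.8 with exoCDN2, 19.7 and 15.7 with CDN2 at 20 µg and 23.6 and 22.8 with CDN2 at 100 µg. Its 2-dose levels were 22.4 and 26.4 CPM with PBS, 21.7 and 21.1 with exoCDN2, 91.6 and 40 with CDN2 at 20 µg and 25.7 and 21.7 with CDN2 of unstated amount. All 16 tumors outside the 2-dose 20 µg CDN2 group lay between 15.7 and 27 CPM, and that group lay above them with its own tumors far apart. Slc2a3 rose against PBS (2.7-fold, log2 fold change 1.44 ± 0.29 SE, adjusted p = 0.002), and without tumor 1 its log2 fold change was 0.70.

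Hexokinase 2, encoded by Hk2, traps glucose in the cell by phosphorylation and was the enzyme with the highest fold change. Hk2 levels after 1 dose were 329 and 297 CPM with PBS, 222 and 345 with unloaded EVs, 294 and 298 with exoCDN2, 554 and 486 with CDN2 at 20 µg and 401 and 439 with CDN2 at 100 µg. With 2 doses they were 166 and 240 CPM with PBS, 280 and 272 with exoCDN2, 690 and 461 with CDN2 at 20 µg and 297 and 314 with CDN2 of unstated amount. The 20 µg CDN2 tumors were high after 1 dose as well as after 2, and tumor 1 of the 2-dose PBS group was the lowest of all. Hk2 rose against 2 doses of PBS (2.84-fold, log2 fold change 1.51 ± 0.24 SE, adjusted p = 0.00047) and stayed changed when either CDN2 tumor was left out. Pfkm, the muscle form of phosphofructokinase, which commits sugar to glycolysis, stood after 1 dose at 56.9 and 52.6 CPM with PBS, 46.5 and 50.5 with unloaded EVs, 49.7 and 46.9 with exoCDN2, 74.9 and 56 with CDN2 at 20 µg and 50.3 and 49.5 with CDN2 at 100 µg. After 2 doses its levels were 44.2 and 62.2 CPM with PBS, 50.3 and 46.7 with exoCDN2, 142 and 92.9 with CDN2 at 20 µg and 49.2 and 49.4 with CDN2 of unstated amount. Only the 2-dose 20 µg CDN2 tumors passed 74.9 CPM. Pfkm rose (2.22-fold, log2 fold change 1.15 ± 0.22 SE, adjusted p = 0.0012), in the group where the 10 muscle markers, Ckm and Acta1 among them, summed to 5740 and 2880 CPM.

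Aldolase A, encoded by Aldoa, splits the 6-carbon sugar, and Tpi1 encodes the isomerase that interconverts its products. Aldoa stood at 3730 and 3520 CPM with PBS, 3330 and 4140 with unloaded EVs, 2520 and 3050 with exoCDN2, 5300 and 4760 with CDN2 at 20 µg and 2790 and 3120 with CDN2 at 100 µg after 1 dose. After 2 doses it was at 2490 and 3470 CPM with PBS, 4570 and 3920 with exoCDN2, 9120 and 5950 with CDN2 at 20 µg and 3490 and 4760 with CDN2 of unstated amount. The 2-dose 20 µg CDN2 tumors were the highest 2 of the 18, followed by tumor 1 of those given the same amount once. Aldoa rose against 2 doses of PBS (2.54-fold, log2 fold change 1.34 ± 0.22 SE, adjusted p = 0.00057). Tpi1 after 1 dose was at 2830 and 2870 CPM with PBS, 2890 and 3700 with unloaded EVs, 1960 and 2330 with exoCDN2, 3710 and 3410 with CDN2 at 20 µg and 2180 and 2250 with CDN2 at 100 µg. Its levels after 2 doses were 2170 and 2880 CPM with PBS, 3080 and 2890 with exoCDN2, 5710 and 4590 with CDN2 at 20 µg and 2790 and 4780 with CDN2 of unstated amount. Tumor 2 of the group with unstated amount lay between both 20 µg tumors. Tpi1 rose by little more than the limit (2.05-fold, log2 fold change 1.03 ± 0.17 SE, adjusted p = 0.00064). Without tumor 1 of the CDN2 group neither Aldoa (0.99) nor Tpi1 (0.85) passed the ratio limit on the log2 scale. Against all 4 PBS tumors pooled the log2 fold change of Tpi1 was 0.94, also under that limit.

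The other 11 enzymes stayed under a 2-fold difference in this comparison. Gpi1, Pfkl, Pfkp, Pgk1, Pkm and Ldha had an adjusted p under 0.05 with log2 fold changes from 0.59 (Pkm) to 0.91 (Gpi1), and both CDN2 tumors lay above both PBS tumors for each. Ldha, which makes lactate, stood at 2080 and 2710 CPM with PBS and 4220 and 3320 CPM with CDN2 (1.58-fold, log2 fold change 0.66 ± 0.16 SE, adjusted p = 0.0061). Hk1, Aldoc, Pgam1, Eno1 and Eno2 had log2 fold changes from -0.09 (Hk1) to 0.49 (Eno2) and an adjusted p of 0.05 or more. Eno1, the most abundant of these, had overlapping groups with 5160 and 6770 CPM in the PBS tumors and 6960 and 6090 CPM in the CDN2 tumors. Reads of some enzymes can be shared out among near-identical copies in the counting, so that their values are less certain. Of all 75-base stretches in the longest transcript, 67.5% were shared with other genes for Pgk1, 65.4% for Eno1, 40.6% for Pgam1 and 19.6% for Pkm, against 5.23% or less for the other enzymes.

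Slc16a3 encodes MCT4, which exports lactate, and Pfkfb3 encodes an enzyme that makes the activator of phosphofructokinase. Slc16a3 levels after 1 dose were 205 and 191 CPM with PBS, 199 and 312 with unloaded EVs, 95.7 and 107 with exoCDN2, 221 and 178 with CDN2 at 20 µg and 105 and 128 with CDN2 at 100 µg. After 2 doses they were 117 and 180 CPM with PBS, 210 and 196 with exoCDN2, 356 and 363 with CDN2 at 20 µg and 235 and 313 with CDN2 of unstated amount. The 2-dose 20 µg CDN2 tumors were nearly equal and the highest of all, and both 1-dose exoCDN2 tumors were among the lowest 4. Slc16a3 rose against 2 doses of PBS (2.42-fold, log2 fold change 1.28 ± 0.23 SE, adjusted p = 0.001). Pfkfb3 stood after 1 dose at 32.2 and 30 CPM with PBS, 26.1 and 33.4 with unloaded EVs, 43.5 and 42.8 with exoCDN2, 29 and 32.8 with CDN2 at 20 µg and 33 and 37.8 with CDN2 at 100 µg. Its 2-dose levels were 24.2 and 23.8 CPM with PBS, 50.9 and 37.2 with exoCDN2, 175 and 51.6 with CDN2 at 20 µg and 33.3 and 25.1 with CDN2 of unstated amount. Tumor 1 of the 20 µg CDN2 group stood far above the rest, whereas tumor 2 was close to tumor 1 of the exoCDN2 group. Pfkfb3 rose (4.73-fold, log2 fold change 2.24 ± 0.41 SE, adjusted p = 0.001), and without tumor 1 its log2 fold change was 1.10, still past the limits.

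Pfkfb4, a relative of Pfkfb3, and Pdk1, a kinase that keeps pyruvate out of mitochondria, did not pass the limits against 2 doses of PBS. Pfkfb4 was the scarcest of the 35 genes per kilobase, between 3.69 and 9.36 CPM in the 18 tumors (1.53-fold, log2 fold change 0.61 ± 0.23 SE, adjusted p = 0.046). Pdk1 levels after 1 dose were 130 and 118 CPM with PBS, 124 and 162 with unloaded EVs, 66.3 and 71.4 with exoCDN2, 136 and 94 with CDN2 at 20 µg and 79.2 and 80.5 with CDN2 at 100 µg. After 2 doses they were 103 and 104 CPM with PBS, 96.7 and 110 with exoCDN2, 82 and 83.1 with CDN2 at 20 µg and 156 and 114 with CDN2 of unstated amount. The 2-dose 20 µg CDN2 tumors were the lowest of the 2-dose groups for Pdk1, and the 1-dose exoCDN2 tumors were the lowest of all. Pdk1 had a negative value against PBS (log2 fold change -0.32 ± 0.17 SE, adjusted p = 0.15) in the comparison in which the other HIF-responsive regulators Slc2a1 and Pfkfb3 rose.

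Egln3 encodes a prolyl hydroxylase that acts on HIF-alpha, and it had the highest fold change of the list. After 1 dose it stood at 5.03 and 3.76 CPM with PBS, 2.87 and 7.37 with unloaded EVs, 2.74 and 2.25 with exoCDN2, 4.54 and 2.88 with CDN2 at 20 µg and 4.13 and 3.59 with CDN2 at 100 µg. After 2 doses it stood at 4.02 and 4.6 CPM with PBS, 9.82 and 5.54 with exoCDN2, 116 and 24.9 with CDN2 at 20 µg and 6.36 and 7.4 with CDN2 of unstated amount. All tumors outside the 2-dose 20 µg CDN2 group were at or below 9.82 CPM, and the 2 tumors of that group, though above them, were far apart. Egln3 rose against 2 doses of PBS (16.3-fold, log2 fold change 4.03 ± 0.65 SE, adjusted p = 0.00051), and its log2 fold change was 2.52 without tumor 1 of the CDN2 group and 4.70 without tumor 2. Egln1, the main oxygen-sensing member of the same family, was at 157 and 141 CPM with PBS, 145 and 206 with unloaded EVs, 75.4 and 81.2 with exoCDN2, 163 and 106 with CDN2 at 20 µg and 88.3 and 104 with CDN2 at 100 µg after 1 dose. Its levels after 2 doses were 109 and 139 CPM with PBS, 119 and 129 with exoCDN2, 278 and 149 with CDN2 at 20 µg and 194 and 143 with CDN2 of unstated amount. Tumor 1 of the 20 µg CDN2 group was the highest and tumor 2 was within the range of the other groups. Egln1 did not reach the ratio limit (1.73-fold, log2 fold change 0.79 ± 0.28 SE, adjusted p = 0.036), and its log2 fold change without tumor 1 was 0.26.

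**Figure D4:**
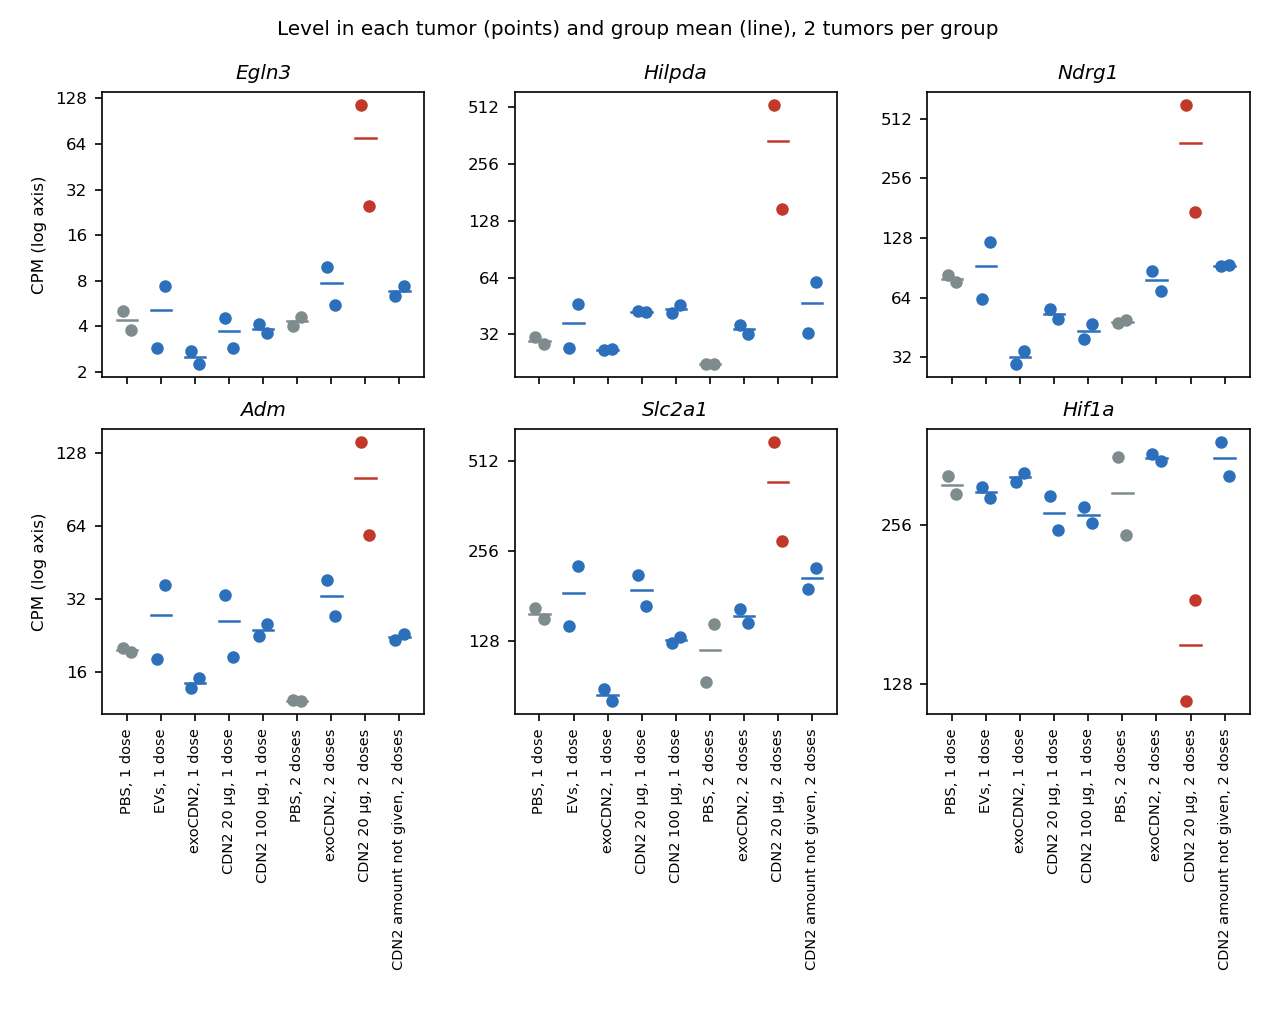
Level of Egln3, Hilpda, Ndrg1, Adm, Slc2a1 and Hif1a in CPM (vertical axes, log scale) in each tumor by group (horizontal axes), with points for tumors, a line for the group mean and 2 tumors per group, the 2 doses of 20 µg CDN2 in red and PBS in grey. The red points lie above all others for the first 5 genes and below all others for Hif1a.

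Hilpda encodes a lipid droplet protein that slows the breakdown of stored fat, and Adm encodes adrenomedullin, a peptide that widens blood vessels. Hilpda levels were 30.8 and 28.4 CPM with PBS, 27.1 and 46.3 with unloaded EVs, 26.4 and 26.7 with exoCDN2, 42.3 and 42.2 with CDN2 at 20 µg and 41.6 and 45.9 with CDN2 at 100 µg after 1 dose. With 2 doses the levels were 22.2 and 22.2 CPM with PBS, 35.9 and 32.3 with exoCDN2, 528 and 148 with CDN2 at 20 µg and 32.6 and 60.9 with CDN2 of unstated amount. Both tumors given 2 doses of 20 µg CDN2 were above all others, tumor 1 by far. Hilpda rose (15.3-fold, log2 fold change 3.93 ± 0.47 SE, adjusted p = 8.8e-05), and its log2 fold change was 2.73 without tumor 1 of the CDN2 group and 4.53 without tumor 2. Adm stood at 20.1 and 19.3 CPM with PBS, 18.1 and 36.6 with unloaded EVs, 13.7 and 15.1 with exoCDN2, 33.3 and 18.4 with CDN2 at 20 µg and 22.5 and 25.1 with CDN2 at 100 µg after 1 dose. After 2 doses it stood at 12.2 and 12.1 CPM with PBS, 38.3 and 27.2 with exoCDN2, 143 and 58.9 with CDN2 at 20 µg and 21.6 and 22.8 with CDN2 of unstated amount. The 2-dose groups did not overlap with each other for PBS, exoCDN2 and 20 µg CDN2, in that order from low to high. Adm rose with 20 µg CDN2 (8.3-fold, log2 fold change 3.05 ± 0.44 SE, adjusted p = 0.00025), by 2.27 on the log2 scale without tumor 1 of that group.

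Vegfa encodes the main growth factor for blood vessels, and Car9 encodes carbonic anhydrase IX, a cell surface enzyme that regulates pH. Vegfa was at 113 and 93.7 CPM with PBS, 84.8 and 166 with unloaded EVs, 67.2 and 61.9 with exoCDN2, 119 and 80.6 with CDN2 at 20 µg and 105 and 121 with CDN2 at 100 µg after 1 dose. Its 2-dose levels were 70.5 and 68 CPM with PBS, 94.1 and 97.5 with exoCDN2, 224 and 164 with CDN2 at 20 µg and 129 and 92.3 with CDN2 of unstated amount. Tumor 2 of the unloaded EV group lay between both 2-dose 20 µg CDN2 tumors, and the other tumors lay below. Vegfa rose against 2 doses of PBS (2.81-fold, log2 fold change 1.49 ± 0.28 SE, adjusted p = 0.0013). Car9 after 1 dose stood at 220 and 191 CPM with PBS, 177 and 271 with unloaded EVs, 62.8 and 133 with exoCDN2, 183 and 101 with CDN2 at 20 µg and 70.2 and 86 with CDN2 at 100 µg. After 2 doses it was at 68.6 and 85.7 CPM with PBS, 197 and 189 with exoCDN2, 178 and 221 with CDN2 at 20 µg and 235 and 274 with CDN2 of unstated amount. The 2-dose PBS tumors were low, and the 2-dose 20 µg CDN2 and exoCDN2 tumors, though above them, lay within the range of the 1-dose PBS and unloaded EV tumors, 177 to 271 CPM. Car9 rose against the 2-dose PBS tumors (2.59-fold, log2 fold change 1.38 ± 0.35 SE, adjusted p = 0.0069). Against all 4 PBS tumors pooled the call was lost (log2 fold change 0.50, adjusted p in edgeR's test 0.35).

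Ndrg1, a stress-response gene often used as a hypoxia marker, and Bnip3, which directs mitochondria to autophagy, are further targets. Ndrg1 stood at 83 and 76.9 CPM with PBS, 62.9 and 122 with unloaded EVs, 29.5 and 34.5 with exoCDN2, 55.8 and 49.7 with CDN2 at 20 µg and 39.5 and 47 with CDN2 at 100 µg after 1 dose. Its levels after 2 doses were 47.7 and 49.2 CPM with PBS, 87.7 and 69.1 with exoCDN2, 603 and 173 with CDN2 at 20 µg and 92 and 94 with CDN2 of unstated amount. Tumor 1 given 2 doses of 20 µg CDN2 was highest, tumor 2 came next, and both were above all other groups. Ndrg1 rose (8.03-fold, log2 fold change 3.01 ± 0.47 SE, adjusted p = 4e-04), and its log2 fold change without tumor 1 was 1.83. Bnip3 was at 326 and 296 CPM with PBS, 304 and 473 with unloaded EVs, 136 and 190 with exoCDN2, 330 and 205 with CDN2 at 20 µg and 145 and 180 with CDN2 at 100 µg after 1 dose. After 2 doses it was at 206 and 205 CPM with PBS, 323 and 344 with exoCDN2, 572 and 413 with CDN2 at 20 µg and 414 and 520 with CDN2 of unstated amount. The 20 µg CDN2 tumors overlapped with the group of unstated amount and with tumor 2 of the unloaded EV group. Bnip3 rose against 2 doses of PBS (2.4-fold, log2 fold change 1.27 ± 0.27 SE, adjusted p = 0.0025). Against all 4 PBS tumors pooled its log2 fold change was 0.94, under the ratio limit. Its exons overlap another annotated gene over 22.3% of their bases, and 15.3% of the 75-base stretches in its longest transcript are shared with other genes.

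P4ha1 and P4ha2 encode the catalytic subunits of collagen prolyl 4-hydroxylase. P4ha1 levels were 150 and 130 CPM with PBS, 114 and 177 with unloaded EVs, 155 and 164 with exoCDN2, 227 and 211 with CDN2 at 20 µg and 189 and 206 with CDN2 at 100 µg after 1 dose. They were 108 and 97.6 CPM with PBS, 226 and 172 with exoCDN2, 313 and 289 with CDN2 at 20 µg and 151 and 128 with CDN2 of unstated amount after 2 doses. The 2-dose 20 µg CDN2 tumors were highest, and the 1-dose CDN2 tumors and tumor 1 of the 2-dose exoCDN2 group came next. P4ha1 rose (2.95-fold, log2 fold change 1.56 ± 0.20 SE, adjusted p = 0.00013). P4ha2 stood after 1 dose at 42.7 and 38.2 CPM with PBS, 31.6 and 64.3 with unloaded EVs, 26.4 and 26.5 with exoCDN2, 36.9 and 28 with CDN2 at 20 µg and 32.1 and 38.7 with CDN2 at 100 µg. After 2 doses its levels were 28.1 and 34.9 CPM with PBS, 56 and 45.5 with exoCDN2, 148 and 125 with CDN2 at 20 µg and 46.9 and 55.3 with CDN2 of unstated amount. Here the 2-dose 20 µg CDN2 tumors were close to each other and clear of the other 16, which reached 64.3 CPM. P4ha2 rose (4.35-fold, log2 fold change 2.12 ± 0.28 SE, adjusted p = 0.00017), in tumors whose summed fibroblast markers were 1840 and 869 CPM against 365 and 364 CPM with PBS. Dcn made up 1240 and 183 CPM of these CDN2 sums, and 4 of the 7 markers rose. Col1a1 stood at 86.2 and 146 CPM against 80.3 and 77.8 CPM with PBS, and Col1a2 at 227 and 233 CPM against 91.9 and 79.3 CPM. The part of fibroblasts in the P4ha2 value was not tested.

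Ddit4 encodes REDD1, an inhibitor of mTORC1 signalling, and Ankrd37 encodes a small ankyrin repeat protein known as a HIF target. Ddit4 was at 122 and 102 CPM with PBS, 93.6 and 147 with unloaded EVs, 59.4 and 45.7 with exoCDN2, 152 and 55.5 with CDN2 at 20 µg and 128 and 130 with CDN2 at 100 µg after 1 dose. Its levels after 2 doses were 67.2 and 91.3 CPM with PBS, 80.9 and 78.6 with exoCDN2, 241 and 188 with CDN2 at 20 µg and 107 and 125 with CDN2 of unstated amount. The 2-dose 20 µg CDN2 tumors were above all others. Ddit4 rose (2.71-fold, log2 fold change 1.44 ± 0.37 SE, adjusted p = 0.0077). Ankrd37 stood at 5.21 and 4.77 CPM with PBS, 5.21 and 9.85 with unloaded EVs, 1.82 and 2.14 with exoCDN2, 6.05 and 2.91 with CDN2 at 20 µg and 3.69 and 4.28 with CDN2 at 100 µg after 1 dose. After 2 doses its levels were 4.67 and 5.23 CPM with PBS, 4.6 and 4.4 with exoCDN2, 24.3 and 14.1 with CDN2 at 20 µg and 5.87 and 12.1 with CDN2 of unstated amount. The 2-dose 20 µg CDN2 tumors were highest, tumor 2 of the group with unstated amount came close to them, and the 1-dose exoCDN2 tumors were lowest. Ankrd37 rose (3.88-fold, log2 fold change 1.96 ± 0.38 SE, adjusted p = 0.0014), and 26.4% of its exonic bases overlap other annotated genes, so that reads of these genes may be counted in part for it.

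Kdm3a and Hif1a lay outside this pattern. Kdm3a, a histone demethylase that HIF induces, stood at 124 and 97.8 CPM with 2 doses of PBS and at 49.6 and 104 CPM with 2 doses of 20 µg CDN2, and the groups overlapped (log2 fold change -0.53 ± 0.28 SE, adjusted p = 0.13). Hif1a levels were 317 and 293 CPM with PBS, 302 and 288 with unloaded EVs, 309 and 321 with exoCDN2, 290 and 250 with CDN2 at 20 µg and 277 and 258 with CDN2 at 100 µg after 1 dose. After 2 doses they were 344 and 245 CPM with PBS, 348 and 338 with exoCDN2, 119 and 185 with CDN2 at 20 µg and 368 and 317 with CDN2 of unstated amount. All tumors outside the 2-dose 20 µg CDN2 group lay between 245 and 368 CPM, and both tumors of that group were below them, tumor 1 the lower. The log2 fold change of Hif1a against 2 doses of PBS was -0.95 ± 0.20 SE with an adjusted p of 0.0024, a ratio of 1.93 that is just under the limit. The same 2 tumors were above all 16 others for 8 of the 13 HIF targets, 5 of the 6 transporters and regulators, and 2 of the 15 enzymes (Pfkm and Aldoa). The share of all genes for which this held was not counted, so these counts only describe the list.

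After 2 doses of exoCDN2 at 0.1 µg, 2 of the 35 genes, Car9 and Adm, rose against 2 doses of PBS and none fell, while 11.3% of all genes changed and 8.87% rose. The share of the list that rose was below that of all genes. Car9 had 197 and 189 CPM against 68.6 and 85.7 CPM with PBS (2.5-fold, log2 fold change 1.32 ± 0.35 SE, adjusted p = 0.021). Adm had 38.3 and 27.2 CPM against 12.2 and 12.1 CPM (2.69-fold, log2 fold change 1.43 ± 0.41 SE, adjusted p = 0.033). P4ha1 (1.94-fold, log2 fold change 0.95 ± 0.19 SE, adjusted p = 0.0056) and Pfkp, the platelet form of phosphofructokinase (1.64-fold, log2 fold change 0.71 ± 0.19 SE, adjusted p = 0.021), passed the adjusted p but not the ratio, against 10.9% of all genes that were higher by the adjusted p alone. The median log2 fold change was 0.69 over the HIF targets and 0.28 over the enzymes, and both exoCDN2 tumors were above both PBS tumors for 10 of 13 HIF targets and 8 of 15 enzymes, against 30.3% of all genes. Egln3 (log2 fold change 0.83 ± 0.59 SE, adjusted p = 0.38) and Hilpda (log2 fold change 0.62 ± 0.42 SE, adjusted p = 0.35), the genes with the highest changes after CDN2, did not pass. The Car9 call was lost on leaving out any of the 4 tumors, and the Adm call on leaving out any but exoCDN2 tumor 2, with counts of 0 to 2 changed genes. Against all 4 PBS tumors pooled both calls were lost, with log2 fold changes of 0.45 for Car9 (adjusted p in edgeR's test 0.54) and 1.04 for Adm (0.073). Marker sums after exoCDN2 were 157 and 85.4 CPM for 8 T and NK cell genes against 3.2 and 1.86 CPM with PBS, and 7 of these 8 rose. None of the 8 was at 0 in these tumors, and their part in the Car9 and Adm results was not tested.

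Compared directly after 2 doses, exoCDN2 at 0.1 µg and CDN2 at 20 µg differed in 14 of the 35 genes, 13 lower with exoCDN2 and Hif1a higher, while 19.4% of all genes changed, 12% lower and 7.34% higher. The injected amounts of CDN2 differed, so that carrier and amount cannot be told apart. The lower genes were 8 HIF targets, 2 enzymes (Hk2 and Pfkm) and 3 transporters and regulators (Slc2a1, Slc2a3 and Pfkfb3), with medians of -1.43 over the HIF targets and -0.42 over the enzymes. Hilpda differed most, 35.9 and 32.3 against 528 and 148 CPM (9.95-fold lower, log2 fold change -3.31 ± 0.45 SE, adjusted p = 0.0013). Egln3 was 9.19-fold lower and Ndrg1 4.97-fold lower with exoCDN2. Hif1a was higher with exoCDN2 (2.25-fold, log2 fold change 1.17 ± 0.20 SE, adjusted p = 0.0024). Adm, Ankrd37, P4ha2, Ddit4 and Vegfa completed the lower targets, from -2.10 (Ankrd37) to -1.02 (Vegfa) on the log2 scale. Without CDN2 tumor 1, 5 of the 14 stayed changed, all HIF targets (Egln3, Ndrg1, Ankrd37, P4ha2 and Hilpda), and without exoCDN2 tumor 2 the count was 8. The Pfkfb3 difference without CDN2 tumor 1 was -0.24 on the log2 scale (adjusted p in edgeR's test 0.43). Fitting only the 4 tumors compared called none of the 14, with adjusted p from 0.13 to 0.21 in edgeR's test. The log2 fold changes were close to those given, such as -3.33 for Hilpda. Over all genes that fit called 30 of 16125, against 3279 of 16927 in the main fit, so the loss was not particular to the list. Car9, Bnip3 and the abundant enzymes Eno1 and Gpi1 did not pass the adjusted p, with log2 fold changes of -0.05, -0.57, -0.28 and -0.60 and SEs of 0.34, 0.27, 0.16 and 0.23.

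After a single dose none of the 4 treatments changed any of the 35 genes against PBS in edgeR's test, while 0% of all genes changed with unloaded EVs, 2.62% with exoCDN2, 3.14% with CDN2 at 20 µg and 2.44% with CDN2 at 100 µg. At an unadjusted p under 0.05 the list had 0, 15, 4 and 12 genes in the same order, against 3.19%, 15.8%, 16.1% and 15.1% of all genes. DESeq2 called 0, 1, 0 and 1, the calls being Ankrd37 lower with exoCDN2 and Car9 lower with CDN2 at 100 µg. Over all 16927 genes DESeq2 called 36, 708, 750 and 667 in that order. With exoCDN2, Slc16a3 (1.95-fold lower, log2 fold change -0.96 ± 0.23 SE, adjusted p = 0.042) and Pdk1 (1.8-fold lower, log2 fold change -0.85 ± 0.18 SE, adjusted p = 0.02) passed the adjusted p alone, against 0.662% of all genes that were lower by that rule. Both exoCDN2 tumors were below both PBS tumors for 29 of the 35 genes, 13 of 15 enzymes and 12 of 13 HIF targets, against 36.4% of all genes. The median log2 fold change was -0.81 for the HIF targets and -0.33 for the enzymes. Summed neutrophil markers were 55.1 and 34.5 CPM with exoCDN2 and 3.76 and 3.17 CPM with PBS, with 2 of 8 risen and Camp at 0 in these tumors. Keratinocyte markers summed to 2.24 and 0.575 CPM with exoCDN2 and 125 and 67.4 CPM with PBS, with 0 of 7 changed, and the part of either in these values was not tested. P4ha1 was the exception among the targets, with 155 and 164 CPM against 150 and 130 CPM. With CDN2 at 20 µg the enzymes had a median of 0.26 and the HIF targets of -0.15, and with 100 µg the medians were -0.36 and -0.19.

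Between treatments at 1 dose, exoCDN2 was lower than unloaded EVs for 5 of the 35 genes and higher for none, against 2.95% of all genes changed and 0.425% lower. These were the lactate exporter Slc16a3 (2.52-fold, log2 fold change -1.33 ± 0.23 SE, adjusted p = 0.0068), Pdk1 (2.08-fold, log2 fold change -1.06 ± 0.18 SE, adjusted p = 0.0052), Bnip3 (2.38-fold, log2 fold change -1.25 ± 0.27 SE, adjusted p = 0.023), Egln1 (2.24-fold, log2 fold change -1.16 ± 0.29 SE, adjusted p = 0.046) and Ankrd37 (3.79-fold, log2 fold change -1.92 ± 0.38 SE, adjusted p = 0.015), with no overlap between the groups. None of the 15 enzymes was among them, and their median was -0.42 against -1.03 for the HIF targets. Egln1 was no longer called with RLE in place of TMM scaling factors (log2 fold change -1.13) or with a replicate block (-1.17). The calls on the list depended on single tumors. Leaving out 1 tumor of either group also lowered the number of calls over all genes, so the loss was not particular to the list. Tumor 2 of the unloaded EV group held Ankrd37 at 9.85 CPM and Bnip3 at 473 CPM while tumor 1 held 5.21 and 304 CPM, near the PBS tumors, and without that tumor 2, or without exoCDN2 tumor 1, no gene of the list was changed. Without exoCDN2 tumor 2 there were 2. Unloaded EV tumor 2 was also the tumor with the lowest muscle marker sum, 5.6 CPM against 193 in tumor 1.

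The 2 amounts of free CDN2 and exoCDN2 were also compared with each other at 1 dose. None of the 35 genes was changed between exoCDN2 and CDN2 at 20 µg (0.608% of all genes) or between CDN2 at 100 and at 20 µg (0.455% of all genes) in edgeR's test, with 22 and 17 genes at an unadjusted p under 0.05, against 19.5% and 16.5% of all genes at that p. DESeq2 called 1 in each, Slc2a1 lower with exoCDN2 and Aldoc lower at 100 µg, and 386 and 403 over all 16927 genes. All 15 enzymes were lower in both tumors given 100 µg than in both given 20 µg, against 28.9% of all genes, with log2 fold changes from -1.07 to -0.31. Aldoa, as an example, stood at 2790 and 3120 CPM with 100 µg and 5300 and 4760 CPM with 20 µg (log2 fold change -0.77 ± 0.22 SE, adjusted p = 0.11). Only 5 of the 13 HIF targets showed the same separation, and their median was -0.12 against -0.58 for the enzymes. The same pairs were apart in summed endothelial markers (104 and 132 CPM with 100 µg and 46.9 and 49.8 CPM with 20 µg, 4 of 7 higher), in summed muscle markers (524 and 626 and 94.5 and 305 CPM, 0 of 10 changed) and in the mitochondrial share of counts (1.95% and 2.3% with 100 µg, 3.33% and 3.31% with 20 µg). The part of these in the enzyme values was not tested.

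Number of doses was compared within each treatment. The second dose came 3 days after the first and all tumors were collected 24 h after the last. Number of doses and days since the first injection therefore cannot be told apart within a treatment. With PBS no gene of the list changed between 2 doses and 1 in edgeR's test (1.1% of all genes changed). An unadjusted p under 0.05 was found for 5, near the 10.4% of all genes with such a p. DESeq2 called Car9 in the list, and 389 over all 16927 genes. Yet both 2-dose PBS tumors were below both 1-dose PBS tumors for 25 of the 35 genes and above for none, against 22.9% of all genes below. Car9 had the greatest such difference, 68.6 and 85.7 CPM after 2 doses and 220 and 191 CPM after 1 (log2 fold change -1.41 ± 0.35 SE, adjusted p = 0.093). Each 2-dose comparison with PBS is made against a pair whose HIF targets stood at a median log2 fold change of -0.45 from the 1-dose pair. Between 1 and 2 doses of PBS summed keratinocyte markers were 125 and 67.4 and then 0.816 and 0.416 CPM (0 of 7 changed), muscle markers 87.8 and 160 and then 221 and 413 CPM (0 of 10), and T and NK cell markers 11.5 and 13.6 and then 3.2 and 1.86 CPM (2 of 8 fell). Their part in the PBS values was not tested. With exoCDN2, Bnip3 rose from 1 to 2 doses (2.04-fold, log2 fold change 1.03 ± 0.27 SE, adjusted p = 0.028) against 5.1% of all genes that rose, and Slc16a3 was at the limit (2-fold, log2 fold change 1.00 ± 0.23 SE, adjusted p = 0.017), with 7.17% of all genes higher by the adjusted p alone. Both 2-dose exoCDN2 tumors were above both 1-dose tumors for all 13 HIF targets and 11 of 15 enzymes, against 37% of all genes. The Bnip3 call was lost on leaving out any of the 4 exoCDN2 tumors (adjusted p in edgeR's test from 0.062 to 0.25), and the count of changed genes was then 0 or 1.

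With CDN2 at 20 µg, 10 of the 35 genes rose from 1 to 2 doses and none fell (20.8% of all genes changed and 14.4% rose). They were 7 of 13 HIF targets (Egln3, Ndrg1, Adm, Ankrd37, P4ha2, Ddit4 and Hilpda) and 3 of 6 transporters and regulators (Slc2a1, Slc2a3 and Pfkfb3), and no enzyme. Egln3 (19-fold, log2 fold change 4.24 ± 0.66 SE, adjusted p = 0.0012), Hilpda (8.04-fold, log2 fold change 3.01 ± 0.45 SE, adjusted p = 0.001) and Ndrg1 (7.38-fold, log2 fold change 2.88 ± 0.47 SE, adjusted p = 0.0013) led them. The medians were 1.05 for the HIF targets and 0.14 for the enzymes. Among the enzymes, Hk2 stood at 554 and 486 CPM after 1 dose and 690 and 461 CPM after 2, with overlapping groups (log2 fold change 0.15 ± 0.24 SE, adjusted p = 0.63). Pkm, the last step to pyruvate, stood at 6550 and 5660 CPM after 1 dose and 7220 and 6170 CPM after 2, also with overlap (log2 fold change 0.14 ± 0.16 SE, adjusted p = 0.52). Without tumor 1 of the 2-dose group 7 of the 10 stayed changed, and without tumor 2 all 10 did, in a total of 16. Fitting only the groups compared called 2, and over all genes 629 of 15526, against 3521 of 16927 in the main fit.

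The effect of treatment against PBS was set against itself at 2 doses and 1 with an interaction term. For CDN2 at 20 µg the log2 fold change was higher at 2 doses for 13 of the 35 genes (16.8% of all genes changed and 11.7% were higher), 9 HIF targets, 4 transporters and regulators and no enzyme. Egln3 differed most (log2 fold change 4.27 ± 0.87 SE, adjusted p = 0.0075), then Ndrg1 (log2 fold change 3.60 ± 0.63 SE, adjusted p = 0.0043) and Hilpda (log2 fold change 3.42 ± 0.60 SE, adjusted p = 0.0044). For exoCDN2 it was higher at 2 doses for Slc16a3, Bnip3 and Car9 (6.82% of all genes changed and 5.12% were higher), of which Car9 had the highest value (log2 fold change 2.39 ± 0.49 SE, adjusted p = 0.012). In all 3 the log2 fold change against PBS was negative at 1 dose and positive at 2, -0.96 and 0.45 for Slc16a3, -0.93 and 0.70 for Bnip3, and -1.07 and 1.32 for Car9. Part of each such value lies in the PBS pairs, which for Car9 differed by -1.41 on the log2 scale. Without tumor 1 or tumor 2 of 1 dose of PBS the count for CDN2 was 6 and 7 in place of 13, without tumor 2 of 1 dose of CDN2 it was 8, and fitting only the groups compared it was 7. Without tumor 1 of 2 doses of CDN2 the values were 2.75 for Egln3, 2.41 for Ndrg1, 2.20 for Hilpda and 1.09 for Pfkfb3, and Slc2a1 was no longer called. For exoCDN2 it ranged from 1 to 3 on leaving out single tumors, and was 1 without tumor 1 of 1 dose or of 2 doses of exoCDN2, either tumor of 1 dose of PBS, or tumor 1 of 2 doses of PBS.

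The tumors given 2 doses of CDN2 of unstated amount were tested with all 18 tumors in the fit and changed in 1 of the 35 genes against PBS, Car9 (3.3-fold, log2 fold change 1.72 ± 0.34 SE, adjusted p = 0.024), against 0.959% of all genes. Car9 stood at 235 and 274 CPM, the highest of all groups. Both tumors were above both PBS tumors for 24 of the 35 genes, 12 of 13 HIF targets and 8 of 15 enzymes, against 15% of all genes, and the medians were 0.70 for the HIF targets and 0.45 for the enzymes. Egln3 (6.36 and 7.4 CPM) and Hilpda (32.6 and 60.9 CPM) were far below the levels of the 20 µg group. The Car9 call was lost when either PBS tumor or tumor 2 of the group was left out, and against all 4 PBS tumors pooled its log2 fold change was 0.85 (adjusted p in edgeR's test 0.60). The fit with pooled PBS tumors called 0 of all 17110 genes for this group, so the loss there was not particular to Car9. Tumor 2 of the group had the highest mitochondrial share of counts of the 18 tumors, 7.67% against 1.95% to 5.12% in the others. It also had the lowest TMM factor, 0.823, and the part of both in the results was not tested.

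Further genes of both pathways were counted by lists that do not hold the 35. Of 27 tested genes of glucose metabolism 7 rose and 3 fell after 2 doses of 20 µg CDN2, with a median log2 fold change of 0.18, near the shares of all genes, of which 20% rose and 10.6% fell. The transporter gene Slc2a6 (5.36-fold, log2 fold change 2.42 ± 0.22 SE, adjusted p = 2e-05) rose, and so did Pdk4, which was at very low levels in the PBS tumors (0.531 and 0.306 CPM against 212 and 28.3 CPM). Slc16a7, a further monocarboxylate transporter gene, fell (4.82-fold lower, log2 fold change -2.27 ± 0.36 SE, adjusted p = 0.00048), as did Pfkfb2 (2.38-fold lower, log2 fold change -1.25 ± 0.40 SE, adjusted p = 0.022) and Pfkfb1 (2.07-fold lower, log2 fold change -1.05 ± 0.37 SE, adjusted p = 0.034). Gapdh stood at 4270 and 5620 CPM with PBS and 10400 and 7800 CPM with CDN2 and was under the ratio limit (1.84-fold, log2 fold change 0.88 ± 0.19 SE, adjusted p = 0.0026). Of 37 tested genes of the hypoxia response 16 rose and 4 fell, with a median of 0.61. The share that fell was near that of all genes. Pfkfb2 is in both lists and is counted among the fallen of each. The secreted glycoprotein gene Stc2 (0.327 and 0.153 CPM against 21.4 and 7.75 CPM) and the mitochondrial gene Higd1a (3.54-fold, log2 fold change 1.82 ± 0.23 SE, adjusted p = 0.00013) rose, and the transferrin receptor gene Tfrc (5.13-fold lower, log2 fold change -2.36 ± 0.22 SE, adjusted p = 2.6e-05) and Anln (3.13-fold lower, log2 fold change -1.65 ± 0.35 SE, adjusted p = 0.0024), which serves cell division, fell.

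With 2 doses of exoCDN2 the same lists gave 2 risen and none fallen of 27 (Slc2a6, 3.96-fold, log2 fold change 1.99 ± 0.22 SE, adjusted p = 9.8e-05, and Hk3, 8.16-fold, log2 fold change 3.03 ± 0.48 SE, adjusted p = 0.0012) and 3 risen and none fallen of 37 (among them Edn1, 5.36-fold, log2 fold change 2.42 ± 0.65 SE, adjusted p = 0.024, and Stc2, 4.58-fold, log2 fold change 2.19 ± 0.64 SE, adjusted p = 0.035). Both shares were below the 8.87% of all genes that rose. Hk3 encodes the hexokinase form of blood cells. At 1 dose Slc2a6 rose with exoCDN2 (2.33-fold, log2 fold change 1.22 ± 0.21 SE, adjusted p = 0.0066) and with CDN2 at 20 µg (2.49-fold, log2 fold change 1.32 ± 0.21 SE, adjusted p = 0.0043), at levels of 28.1 and 36.3 and 32.7 and 36.2 CPM against 13.4 and 14.3 CPM with PBS. Against unloaded EVs, 1 dose of exoCDN2 was lower for 4 of the 37 hypoxia genes, against 0.425% of all genes, led by Mxi1, a MYC antagonist (2.37-fold lower, log2 fold change -1.24 ± 0.25 SE, adjusted p = 0.016), Ak4, a mitochondrial kinase (2.04-fold lower, log2 fold change -1.03 ± 0.21 SE, adjusted p = 0.016), and Selenbp1 (2.83-fold lower, log2 fold change -1.50 ± 0.33 SE, adjusted p = 0.026).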

How the data were processed

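RNA from 18 whole tumors in 9 groups of 2 was sequenced on an Illumina HiSeq. The authors aligned reads to GRCm38 with the OSA aligner in OmicSoft ArraySuite (Ensembl release 88 gene models), and the deposited values are expected counts per gene (estimated counts from RSEM), 8.75% to 12.7% of them not whole. They were rounded for this work. Whether counting used strand is not given in the sources used here. Symbols came from GENCODE M21 for 50376 of 50600 identifiers.

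Genes with a count of 10 or more in enough tumors and 15 in total were kept. The 15 comparisons among the 16 tumors with a stated amount used edgeR 4.0.16 (R 4.3.3, limma 3.58.1) with TMM factors and the quasi-likelihood test, 1 term per group (16927 genes, 8 residual degrees of freedom, common biological coefficient of variation 0.22), with Benjamini-Hochberg adjustment. The group of unstated amount was tested in a fit of all 18 tumors (17110 genes, 9 degrees of freedom). The study's own limits (adjusted p under 0.05, ratio over 2) were kept, and its tool, DESeq2 (1.42.0 here), was an alternative. The tests were checked on simulated counts. The study calls the 2 tumors of a group biological replicates.

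Members and lists were chosen with earlier results of these data known. Levels in every tumor are given for genes changed in at least 1 comparison and for Hif1a. From the further pathway lists at most 3 changed genes each way with the smallest p were named, besides Gapdh, which was chosen after its values were seen, and some genes that this rule picks are not reported here. Alternatives were DESeq2, RLE factors, no scaling factors, no filter, all 18 tumors, only the groups compared, 4 PBS tumors pooled, a replicate block, no limit on the ratio and leaving out each tumor. Total counts per tumor were 21608895 to 65983630. Precision was taken from the spread between tumors, which for each gene was shared by all groups in the fit. In the 2-dose 20 µg CDN2 pair, 17.3% of tested genes were more than 2-fold apart, against 0.257% to 4.2% in the other pairs. SEs and p-values of comparisons with that pair rest in part on the closer pairs and may be too small.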

Additional observations from a re-analysis of the deposited data

Results flagged for a closer look

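The change against PBS differed between 2 doses and 1 dose, by an interaction term tested in edgeR (adjusted p under 0.05, ratio over 2), for 13 genes with CDN2 at 20 µg and for 3 with exoCDN2, of 35. Over all genes, 16.8% changed and 11.7% were higher for CDN2, and 6.82% changed and 5.12% were higher for exoCDN2. With CDN2 at 20 µg the differences, as the log2 fold change at 2 doses minus that at 1 dose, were 4.27 for Egln3, 3.60 for Ndrg1, 3.42 for Hilpda, 2.66 for Adm, 2.44 for P4ha2, 2.11 for Ankrd37, 1.91 for Car9, 1.54 for Vegfa and 1.48 for Bnip3 among the HIF targets. Among the transporters and regulators they were 2.25 for Pfkfb3, 1.91 for Slc2a3, 1.61 for Slc2a1 and 1.27 for Slc16a3. With exoCDN2 they were 2.39 for Car9, 1.63 for Bnip3 and 1.41 for Slc16a3. All 16 differences were positive. Most such calls over all genes were too, 1975 higher and 873 lower with CDN2 and 866 higher and 288 lower with exoCDN2. The pair given 2 doses of PBS differed from the pair given 1 dose to unequal extents, by -1.41 on the log2 scale for Car9, -0.60 for Bnip3, -0.41 for Slc16a3 and -0.03 for Egln3. Without tumor 1 or tumor 2 of 1 dose of PBS the count for CDN2 was 6 and 7 in place of 13, and without tumor 2 of 1 dose of CDN2 it was 8. Without tumor 1 of 2 doses of CDN2 the differences were 2.75 for Egln3, 2.41 for Ndrg1, 2.20 for Hilpda and 1.09 for Pfkfb3, and Slc2a1 (0.92, adjusted p in edgeR's test 0.094) was no longer past the limits. The part of any single cause was not tested.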

How the results depend on the processing

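The count of changed genes among the 35 after 2 doses of 20 µg CDN2 against PBS stayed between 16 and 19 under every alternative that kept all tumors and the ratio limit (28 with no ratio limit), and no gene past the adjusted p turned its direction under these alternatives or on leaving out a tumor. With no ratio limit the counts were 2 for exoCDN2 against PBS at 1 dose and 4 at 2 doses. They were 23 for exoCDN2 against CDN2 at 2 doses, and 4 for exoCDN2 and 19 for CDN2 between 2 doses and 1. Over all 16927 genes these counts were 552, 3034, 6337, 2061 and 6126. DESeq2 gave 1 (exoCDN2) and 1 (CDN2 at 100 µg) against PBS at 1 dose, 9 for exoCDN2 against unloaded EVs, 1 against CDN2 at 20 µg, 1 between both CDN2 amounts, 2 for the unstated amount, 1 between PBS doses, 4 between exoCDN2 doses and 6 for the exoCDN2 interaction. Over all genes DESeq2 called, in the same order, 708, 667, 696, 386, 403, 359, 389, 1466 and 1571. It tested 16927 genes, or 17110 for the unstated amount. Without the filter the 9 counts among the 35 were 4, 1, 10, 2, 1, 3, 1, 6 and 11. Over all genes they were 1166, 1178, 1101, 707, 800, 713, 766, 1886 and 2045. Here 28330 genes were tested, or 28474 for the unstated amount. Fitting only the groups compared gave 4 (exoCDN2) and 1 (CDN2 at 100 µg) against PBS at 1 dose, 8 for exoCDN2 against unloaded EVs, 1 against CDN2 at 1 dose, 0 at 2 doses, 1 between PBS doses, 5 between exoCDN2 doses, 2 between CDN2 doses, and 11 and 7 for the exoCDN2 and CDN2 interactions. Over all genes these fits called, in the same order, 1300, 1352, 665, 354, 30, 285, 1609, 629, 1708 and 1179. Each tested 15086 to 16329 genes. Such fits have few residual degrees of freedom. With 4 PBS tumors pooled, exoCDN2 and CDN2 at 20 µg had 1 each at 1 dose, and exoCDN2 and the unstated amount had 0 at 2 doses. Over all genes the pooled fits called 685 and 930 at 1 dose, and 1654 and 0 at 2 doses. All 18 tumors gave 1 for CDN2 at 100 µg, and 427 over all 17110 genes. Total counts without factors gave 0 for the unstated amount, 2 between exoCDN2 doses and 5 for its interaction. Over all genes these were 129, 1278 and 1166. RLE factors gave 0 between exoCDN2 doses, and 1256 over all genes. Total counts moved the median of all genes by -0.213 for CDN2 at 2 doses against PBS, where the enzymes' median became 0.47 and that of the HIF targets 1.33.

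Leaving out each tumor gave 14 to 23 changed genes for CDN2 against PBS at 2 doses, 0 to 2 for exoCDN2, 0 to 3 for the unstated amount, 5 to 17 for exoCDN2 against CDN2 at 2 doses, 0 to 6 against unloaded EVs, 0 to 1 between exoCDN2 doses, 7 to 16 between CDN2 doses, and 1 to 3 and 6 to 19 for the interactions. Over all comparisons, 304 single-gene results stayed past the adjusted p in these fits and 176 did not, against 103 and 0 with DESeq2 and 44 and 59 with only the groups compared. Calls over all genes moved in these fits as well. In a group left with 1 tumor, that tumor is assumed to vary like the other groups.

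The labels give each group replicates 1 and 2 but do not say that the numbers pair tumors, and deviations of same-numbered tumors correlated between -0.276 and 0.37 over pairs of groups (mean 0.00752). A replicate block gave 2 between exoCDN2 doses in place of 1, 4 for exoCDN2 against unloaded EVs in place of 5, and moved no other count by over 1.5 times. With 2 tumors per group, small differences were not detectable.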
